A study of Mus musculus with 3 samples.

Results

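The miR-34 and miR-449 family comprises the microRNAs miR-34a, miR-34b, miR-34c, miR-449a, miR-449b and miR-449c, encoded by 6 mouse genes (Mir34a to Mir449c) of 1059 microRNA genes counted in the same way. A read was assigned to a member if its first 20 bases equalled those of one of the member's mature microRNAs, from either the 5′ arm (5p) or the 3′ arm (3p) of the hairpin, and 11 such arms were counted. Small RNAs had been sequenced from CD1 mice, an outbred laboratory strain, as 1 library of mature sperm, 1 of adult testis and 1 of adult uterus. The sperm had come out of the cauda epididymis, where mature sperm are stored after they leave the testis, and had been kept on ice in a detergent buffer that lyses somatic cells. There are no replicates, so no difference between libraries has a replicate check and none was tested. Intervals are exact 95% intervals for the counting of reads alone, because PCR copies of 1 molecule are counted as separate reads.

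MicroRNAs guide silencing complexes to messenger RNAs through the seed, bases 2 to 8 of the mature strand, and members of a family share that seed. Each hairpin yields a 5p and a 3p strand, of which one is usually retained in the silencing complex and the other is degraded. In mice the miR-34 and miR-449 family is known for its expression in male germ cells from meiosis onwards and in multiciliated epithelia, among them those of the efferent ducts and the oviduct, and for partly overlapping functions of its members in both settings.

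The 5p strands carry the shared seed and are the strands by which the family is defined. The seed is in capitals in the RefSeq sequences below (build GRCm38.p6), each given 5′ to 3′.

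miR-34a-5p (chr4:150068473-150068494, plus strand): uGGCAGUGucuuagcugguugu
miR-34b-5p (chr9:51103610-51103632, minus strand): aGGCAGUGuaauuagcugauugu
miR-449a-5p (chr13:113037549-113037570, plus strand): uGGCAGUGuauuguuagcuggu
miR-449c-5p (chr13:113036008-113036028, plus strand): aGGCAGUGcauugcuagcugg

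All 4 of these hold the seed GGCAGUG, and no other entry of the RefSeq table does. miR-34c-5p and miR-449b-5p were counted by a start placed 1 base before the same heptamer on their hairpins. Over the first 20 bases, miR-34b-5p and miR-34c-5p differ at 1 position, miR-449a-5p and miR-449c-5p at 3, and miR-34a-5p and miR-34b-5p at 9. The 3p strands of Mir34b and Mir34c are shown because the arm balance of these hairpins differed strongly between sperm and testis. They share a seed with each other (capitals), and it is not that of the 5p strands.

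miR-34b-3p (chr9:51103574-51103595, minus strand): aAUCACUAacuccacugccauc
miR-34c-3p (chr9:51103044-51103065, minus strand): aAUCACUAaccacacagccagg

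The 6 genes lie at 3 loci. Mir34a (chr4:150068454-150068555, plus strand) overlaps an exon of Gm37795, an annotated transcript of class TEC, whose type is unsettled. Mir34b (chr9:51103562-51103645) and Mir34c (chr9:51103034-51103110) are separated by 451 bases on the minus strand, inside an intron of Btg4, which is transcribed from the opposite strand. Mir449c (chr13:113035983-113036091), Mir449b (chr13:113037419-113037498) and Mir449a (chr13:113037534-113037624) follow each other on the plus strand within Cdc20b (chr13:113035111-113091195) and overlap none of its exons. The first 20 bases of each of the 11 arms occurred in transcripts of 1 annotated gene only.

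Depth was 15690722 reads in the sperm library, 23783785 in the testis library and 15876066 in the uterus library, with read lengths of 18 to 44 nt. Reads assigned in this way to any mature microRNA counted were 2.53% of all sperm reads, 1.07% of all testis reads and 69.7% of all uterus reads. Levels are given below per 1000000 of these microRNA reads unless stated. The RefSeq table has no entry for miR-143-3p, miR-145a-5p, miR-1a-3p, miR-133a-3p or miR-150-5p, and others may be absent. Of the absent microRNAs only miR-34c-5p and miR-449b-5p were added, so the microRNA reads and the ranks leave out the rest. A count of 0, taken as at most 3 reads, allows a level of at most 7.55 for sperm, 11.8 for testis or 0.271 for uterus. Markers of other cells were counted beside the family. Of 10 X-linked microRNAs known from testis, 10 had reads in sperm (1.44% of microRNA reads), 10 in testis (1.52%) and 0 in uterus. Single members split: miR-465a-5p had more reads in sperm (1496) than in testis (217), and miR-471-5p had fewer (15 and 159). Of 6 microRNAs known from epithelia, 6 had reads in sperm (10.4% of microRNA reads), 5 in testis (0.0181%, with miR-205-5p at 0) and 6 in uterus (0.0683%). Their share of microRNA reads was far larger in sperm than in either tissue. By reads, miR-200c-3p alone had 36061 of their 41478 in sperm and 1385 of their 7551 in uterus. miR-200b-3p also had more reads in sperm (3117) than in uterus (1261), whereas miR-200a-3p had fewer (1073 and 4235). Of 4 leukocyte microRNAs, 4 had reads in sperm (0.426%), 3 in testis (0.0165%, with miR-142a-3p at 0) and 4 in uterus (0.0116%). miR-199a-3p and miR-214-3p, known from stroma, were together 0.0995% of the microRNA reads of sperm, 0.270% of those of testis and 4.16% of those of uterus. The leukocyte markers thus also had a larger share of the microRNA reads in sperm than in either tissue. By reads they had 1691 in sperm, of which 1551 were of miR-146a-5p alone, 42 in testis and 1279 in uterus. The erythroid markers miR-144-3p and miR-451a went the other way, with 0.00730% in sperm (miR-144-3p at 0), 0.0184% in testis and 0.0111% in uterus. miR-126a-3p, known from endothelium, made up 0.0350% in sperm, 0.000393% in testis and 0.000850% in uterus. The 2 gonad markers opposed each other: miR-184-3p had 18395 sperm, 944 testis and 159 uterus reads, and miR-202-5p had 2, 2492 and 0. The part that RNA of such cells has in the levels below was not tested.

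The family was a major part of the testis microRNAs, a moderate part of those in sperm and a minor part of those in uterus. Its reads numbered 18236 for sperm, 93054 for testis and 6416 for uterus. Of all microRNA reads these were 4.59% in sperm (4.53 to 4.66%), 36.5% in testis (36.3 to 36.7%) and 0.0580% in uterus (0.0566 to 0.0594%). The level in sperm was thus lower than in testis by 2.99 on the log2 scale (ratio 0.126, 0.124 to 0.128) and 79.2 times that in uterus (76.9 to 81.4). The differences between these bulk samples cannot tell fewer cells that hold the family from less of its RNA per cell.

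The share of microRNAs among all reads also differed, and it sets the size of these ratios. Of all reads, the family made up 0.116% in sperm, 0.391% in testis and 0.0404% in uterus. Scaled this way, all ratios moved by 1.24 (sperm over testis), -4.78 (sperm over uterus) and -6.02 (testis over uterus) on the log2 scale. The order of the libraries for the family as a whole did not change: testis was highest and uterus lowest on both scales.

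Of the 6 genes, 4 had reads in sperm and 5 in testis and in uterus. Mir449b had 0 reads on its 5p arm in every library, and Mir449c had 0 in sperm. The members are shown together in the plot of levels by arm and library.

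**Figure D1:**
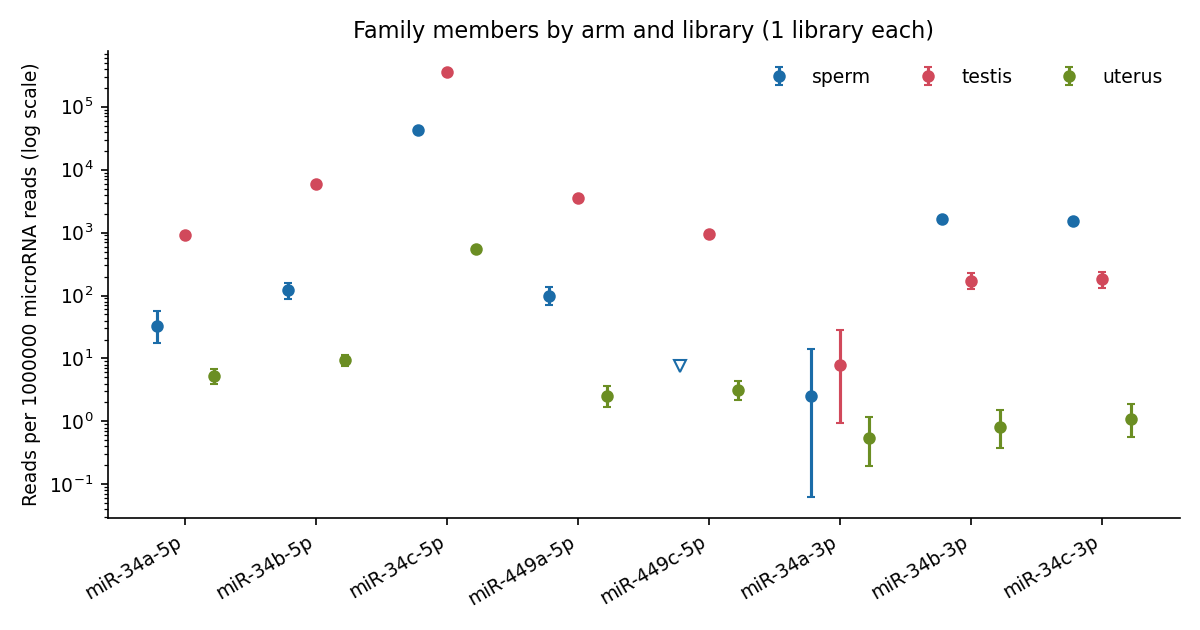
Level of each family arm in reads per 1000000 microRNA reads, on a log axis, for sperm, testis and uterus (1 library each). Points are the measured levels, bars are exact Poisson 95% intervals, and the open triangle marks the upper limit of 7.55 for the 0 sperm reads of miR-449c-5p; miR-449b-5p, miR-449a-3p and miR-449c-3p, with at most 1 read in a library, are left out. Every 5p strand drawn is highest in testis, whereas miR-34b-3p and miR-34c-3p are highest in sperm.

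miR-34c-5p supplied nearly all of the family in each library. Its 16878 sperm, 90114 testis and 6165 uterus reads were 92.6% of the family's reads in sperm (92.2 to 92.9%), 96.8% in testis (96.7 to 97.0%) and 96.1% in uterus (95.6 to 96.5%). Per 1000000 microRNA reads its level was 42498 in sperm, 353742 in testis and 557 in uterus. Among the microRNAs counted it was therefore the most abundant of the 389 with reads in testis, and it ranked 10 of 429 in sperm and 42 of 631 in uterus. Relative to testis its level in sperm was lower by 8.32 times (8.19 to 8.46). Relative to uterus it was 76.2 times higher in sperm (74.0 to 78.5) and 635 times higher in testis (618 to 651). These ratios compare shares of microRNA reads, and their intervals do not cover the choice of scale. Per all reads, the log2 ratio to uterus fell from 6.25 to 1.47 in sperm and from 9.31 to 3.29 in testis. Other abundant microRNAs enter these shares. In uterus let-7c-5p alone had 3528803 of 11059699 microRNA reads, and in testis miR-7210-5p had 50177 of 254745.

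The other 5p strands were minor, and each was lower in sperm relative to testis to a greater degree than miR-34c-5p. Together they made up 0.548% of the family in sperm (0.446 to 0.667%), 3.06% in testis (2.95 to 3.17%) and 3.49% in uterus (3.06 to 3.97%). The share in sperm lay below the intervals of both tissues, and those of testis and uterus overlapped. So the sperm library held less of the minor 5p members for its amount of miR-34c-5p than either tissue did.

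miR-34b-5p, processed from the same locus as miR-34c-5p, had 48 sperm reads, 1483 testis reads and 103 uterus reads. Its level was 121 in sperm (89.1 to 160), 5822 in testis (5529 to 6126) and 9.31 in uterus (7.60 to 11.3), which gives a log2 ratio of -5.59 for sperm over testis (-6.04 to -5.18). The log2 ratio of sperm over uterus was 3.70, and it turned to -1.08 when levels were taken per all reads. Part of the sperm reads carried features of miR-34c-5p, as described further on.

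miR-34a-5p, the strand of the member best known as a transcriptional target of the tumour suppressor p53, had 13 sperm reads, 230 testis reads and 58 uterus reads. Its log2 ratio was -4.79 for sperm over testis (-5.72 to -3.98) and 7.43 for testis over uterus (7.01 to 7.87). For sperm over uterus it was 2.64 (1.65 to 3.53), with the sign turned to -2.14 per all reads. The share of Mir34a in the family was 0.0768% in sperm, 0.249% in testis and 0.998% in uterus. It thus had its largest share where the family was least abundant.

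The Mir449 cluster was represented by 2 of its 3 genes. miR-449a-5p had 39 sperm reads, 892 testis reads and 28 uterus reads, a log2 ratio of -5.16 for sperm over testis (-5.66 to -4.69) and of 5.28 for sperm over uterus (4.54 to 6.03). miR-449c-5p had 0 sperm reads, 242 testis reads and 35 uterus reads, so its level was at least 126-fold lower in sperm than in testis, with 3 reads taken in place of 0. Against uterus the 0 sperm reads allow a level of up to 2.39 times that of uterus, so that no direction can be given. The cluster as a whole made up 0.214% of the family in sperm (0.152 to 0.292%), 1.22% in testis (1.15 to 1.29%) and 0.982% in uterus (0.755 to 1.25%).

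miR-34b-3p and miR-34c-3p went the opposite way. miR-34b-3p had 655 sperm reads, 44 testis reads and 9 uterus reads, and its level was 9.55 times higher in sperm than in testis (7.03 to 13.3). miR-34c-3p had 602 sperm reads, 46 testis reads and 12 uterus reads, and was 8.39 times higher in sperm than in testis (6.21 to 11.6). The other 3p strands had few reads: miR-34a-3p had 1 sperm, 2 testis and 6 uterus reads, miR-449a-3p had 1 testis read, and miR-449c-3p had none. All 3p strands of the family together had a log2 ratio of 3.12 for sperm over testis (2.81 to 3.44), against -3.09 for all 5p strands (-3.12 to -3.07). They made up 6.90% of the family in sperm (6.53 to 7.28%), 0.0999% in testis (0.0807 to 0.122%) and 0.421% in uterus (0.278 to 0.612%). The opposite signs of the 5p strands and of miR-34b-3p and miR-34c-3p were kept per all reads and with the TMM factors of edgeR and the size factors of DESeq2.

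For scale, a 4-fold difference was sought in all microRNAs that reached 100 reads in either library of a pair. Between sperm and testis, 20.3% of 128 microRNAs were at least 4-fold lower in sperm and 37.5% at least 4-fold higher. Of the 7 family strands among them, 5 were lower (miR-34a-5p, miR-34b-5p, miR-34c-5p, miR-449a-5p and miR-449c-5p) and 2 were higher (miR-34b-3p and miR-34c-3p). Per all reads miR-34c-5p, at a log2 ratio of -1.82, was lower by less than 4-fold. The median log2 ratio was 0.49 over the 128 and -4.79 over the 7. Between sperm and uterus, 40.5% of 210 differed 4-fold or more upwards in sperm and 12.9% downwards. All 4 family strands with enough reads (miR-34b-5p, miR-34c-5p, miR-34b-3p and miR-34c-3p) were higher in sperm. Per all reads miR-34b-3p (6.20) and miR-34c-3p (5.67) were still at least 4-fold higher by their log2 ratios, whereas miR-34c-5p (1.47) was not and miR-34b-5p (-1.08) was lower. Their median log2 ratio was 8.35, against 0.93 over all 210. Between testis and uterus, 27% of 211 were at least 4-fold higher in testis and 9.95% lower, and all 5 family strands with enough reads (the 5p strands of all members except miR-449b) were higher, with a median of 9.29 against 0.34. Per all reads miR-34a-5p, at a log2 ratio of 1.40, no longer reached 4-fold. The split of these calls depends on the scaling. Per all reads it was 62 higher and 19 lower in sperm than in testis (48 and 26 per microRNA reads). For sperm against uterus the 85 higher and 27 lower became 29 and 140 per all reads, 71 and 46 after TMM scaling, and 58 and 69 after DESeq2 scaling. For testis against uterus the 57 higher and 21 lower became 29 and 174, 47 and 50, and 47 and 51 under these settings in the same order. A strand that reached 100 reads only in the library where it was high had to differ in that direction, so these counts and medians describe the strands with enough reads and not all 11. Only miR-34c-5p reached 100 reads in both sperm and testis, or in both sperm and uterus. In both testis and uterus only miR-34c-5p and miR-34b-5p did. Against uterus, miR-34b-5p entered the sperm comparison through its uterus reads. The counts and medians of the family are thus largely set by this minimum.

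Outside the family, patterns were compared with that of miR-34c-5p among microRNAs with at least 100 reads in testis and reads in every library. The measure was the Euclidean distance of the log2 ratios of sperm over testis and testis over uterus, and the 4 nearest are named. miR-3470b was nearest, at a distance of 3.56, with 44 sperm, 1155 testis and 12 uterus reads. miR-3471 followed at 4.67 with 25 sperm, 541 testis and 2 uterus reads, miR-1981-5p at 5.32 with 189 sperm, 721 testis and 1942 uterus reads, and miR-15b-5p at 5.53 with 257 sperm, 212 testis and 412 uterus reads. Of 84 candidates, 24 had a count of 0 in a library and were left out, and each of the others lay more than 3 log2 units from miR-34c-5p. Those left out include X-linked testis microRNAs with 0 uterus reads, such as miR-471-5p (15 sperm and 159 testis reads) and miR-883a-3p (23 and 194). Their distances were not taken and could be smaller than those named.

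The balance of the arms separated sperm from both tissues. Of the reads of Mir34c, the 3p strand made up 3.44% in sperm (3.18 to 3.72%), 0.0510% in testis (0.0374 to 0.0680%) and 0.194% in uterus (0.100 to 0.339%). The 5p strand thus outnumbered the 3p strand by 28.0 times in sperm (25.8 to 30.5), 1959 times in testis (1469 to 2676) and 514 times in uterus (294 to 995). miR-34c-5p remained the dominant strand of its hairpin in every library.

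In Mir34b the dominant strand itself changed. The hairpin is printed with its 5p and 3p strands in capitals, since both strands are cut from this one RNA.

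Mir34b hairpin (chr9:51103562-51103645, minus strand): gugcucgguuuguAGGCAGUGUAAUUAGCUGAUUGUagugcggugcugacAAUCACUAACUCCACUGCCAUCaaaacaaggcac

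The 3p strand made up 93.2% of the reads of this hairpin in sperm (91.0 to 94.9%), 2.88% in testis (2.10 to 3.85%) and 8.04% in uterus (3.74 to 14.7%). In sperm the 3p strand was 13.6 times as frequent as the 5p strand (10.2 to 18.7), whereas the 5p strand was 33.7 times as frequent as the 3p strand in testis (25.0 to 46.6) and 11.4 times in uterus (5.80 to 25.7). With starts shifted by 1 or 2 bases included, a setting chosen after seeing the data, the ratio of 5p to 3p reads in testis was 20.1. Mir34b was therefore read mainly from its 3p arm in sperm and mainly from its 5p arm in both tissues. For Mir34a, the 3p strand made up 7.14% of reads in sperm (1 of 14), 0.862% in testis (2 of 232) and 9.38% in uterus (6 of 64), with intervals that overlap between sperm and each tissue. The 3p strand of Mir449a had 1 testis read and 0 reads in the other libraries, and that of Mir449c had 0 in all 3.

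**Figure D2:**
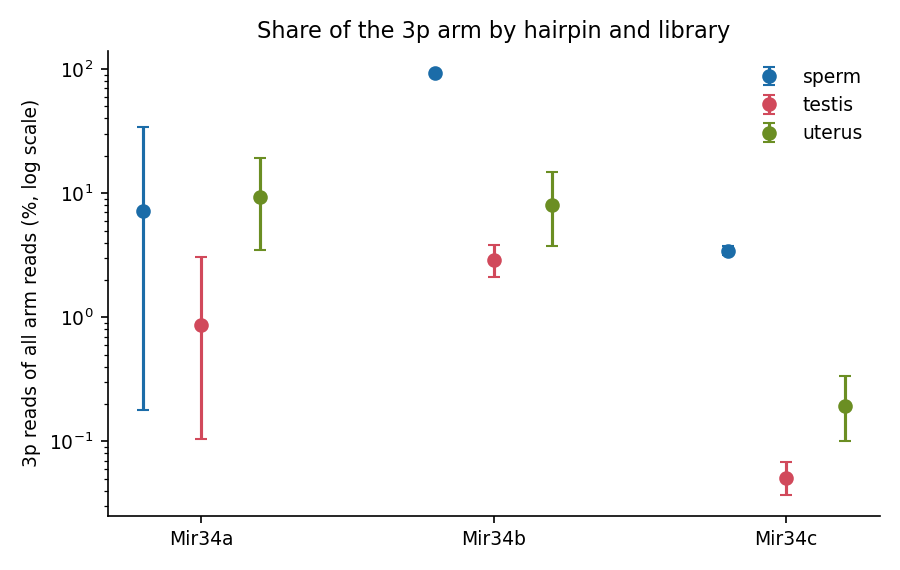
Share of 3p reads among the reads of both arms of Mir34a, Mir34b and Mir34c, in percent on a log axis, for sperm, testis and uterus (1 library each; bars are exact 95% binomial intervals). Mir34b stands at 93.2% in sperm, against 2.88% in testis and 8.04% in uterus, and Mir34c also has its highest share in sperm.

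The arm shifts can be set beside those of other hairpins that have both arms in the RefSeq table and at least 100 reads over both arms in each library of the pair. On the log2 scale, with 0.5 added to each count, the ratio of 3p to 5p reads in sperm exceeded that in testis by 8.82 for Mir34b, by 6.11 for Mir34c and by 3.36 for Mir34a. Among 76 other hairpins the median change was 0.10, the range was -7.35 to 6.68, and 0 lay above Mir34b, 1 above Mir34c and 10 above Mir34a. Mir34a itself fell short of the minimum of 100, with 13 5p reads and 1 3p read in sperm, so its value rests on few reads. Between sperm and uterus the change was 7.20 for Mir34b and 4.14 for Mir34c, with 1 and 11 of 91 other hairpins above them. Between testis and uterus the changes were -1.61 for Mir34b and -1.97 for Mir34c, with 55 and 56 of 70 others above them. Against testis, the shift of Mir34b and Mir34c towards the 3p arm in sperm was thus at the upper end of the hairpins counted.

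The starts of the strands differed in precision. Among reads that follow the hairpin exactly and begin within 3 bases of the expected start, miR-34c-5p began at that start in 99.85% of cases in sperm, 99.94% in testis and 99.96% in uterus. miR-34b-3p began 1 base later in 184 of 784 sperm reads (23.5%), 39 of 79 testis reads (49.4%) and 3 of 11 uterus reads, a shift that moves the seed by 1 base. miR-34b-5p began 1 base earlier in 4 of 19 sperm reads, 227 of 1687 testis reads (13.5%) and 13 of 118 uterus reads (11.0%). The strands of Mir34b therefore had less uniform 5′ ends than miR-34c-5p in all 3 libraries, and shifted reads are not counted in the levels above.

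The 3′ end of miR-34c-5p was close to uniform in sperm and varied in both tissues. The form of 23 nt that follows the hairpin to its last base was the leading form in every library. It made up 98.0% of miR-34c-5p reads in sperm (97.8 to 98.2%), 80.0% in testis (79.8 to 80.3%) and 64.0% in uterus (62.7 to 65.2%). Forms that follow the hairpin but end earlier made up 1.21% in sperm, 10.9% in testis and 19.6% in uterus. Sperm thus had few trimmed reads, and uterus had most. Most shortened reads ended 1 base short, at 22 nt, a form that took 0.841% of all miR-34c-5p reads from sperm, 9.68% from testis and 14.5% from uterus. Longer forms that still follow the hairpin made up 0.0178% in sperm (3 reads), 1.97% in testis and 2.56% in uterus. The sperm library held 24 distinct miR-34c-5p sequences, the testis library 105 and the uterus library 40.

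Bases after the part of a read that matches the hairpin were counted as additions. In cells, terminal nucleotidyltransferases are known to add A or U to the 3′ ends of microRNAs. Reads of miR-34c-5p with such an addition made up 0.764% in sperm (0.638 to 0.908%), 7.11% in testis (6.95 to 7.28%) and 13.9% in uterus (13.0 to 14.8%). Additions of A alone made up 0.421% in sperm, 4.47% in testis and 7.45% in uterus. Additions of U alone made up 0.148% in sperm, 2.27% in testis and 5.79% in uterus. An added base that equals the next base of the hairpin counts as part of the match. After the full form the hairpin continues with U, so a U added there is among the longer forms above, and the frequencies of A and U are not compared with each other. The full form followed by A alone was 0.261% of the total for sperm, 3.79% for testis and 4.59% for uterus. The form 1 base short followed by U alone held 0.142% in sperm, 2.15% in testis and 5.50% in uterus. As counted, both kinds of added base were thus rarest in sperm and most frequent in uterus.

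Shortened and full forms did not share this difference equally. Among reads whose match ended before base 23, an addition was present in 27.3% in sperm (77 of 282 reads; 22.2 to 32.9%), 21.8% in testis (21.1 to 22.6%) and 31.2% in uterus (29.0 to 33.4%). Among reads that matched to base 23 or beyond, it was present in 0.313% in sperm (0.234 to 0.411%), 4.73% in testis (4.59 to 4.89%) and 6.96% in uterus (6.23 to 7.76%). On shortened reads the interval of sperm overlapped those of testis and uterus, and on full-length reads it lay below both.

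**Figure D3:**
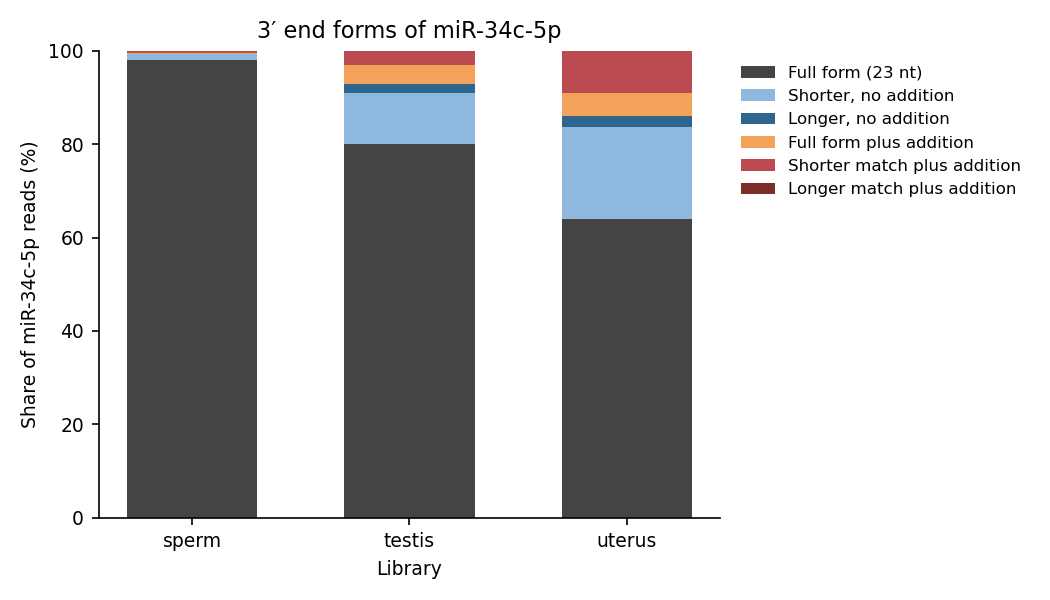
Make-up of miR-34c-5p reads by 3′ end form in sperm, testis and uterus, as stacked shares of 100% (1 library each). The full form of 23 nt takes 98.0% of the sperm bar, 80.0% of the testis bar and 64.0% of the uterus bar, and shorter forms and additions fill most of the rest.

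The same shares were taken for other microRNAs of each library. In sperm, 38 other microRNAs had at least 1000 reads. Their leading form held a median of 59.3% of reads and at most 92.7%, and the share with an addition had a median of 8.31% and a minimum of 2.95%. miR-34c-5p therefore had the most uniform 3′ end and the lowest share of additions among the 39. In testis it had a larger leading form than all but 2 of 16 others (median 66.6%), while 10 of the 16 had more additions (median 9.45%). In uterus 21 of 81 others had a larger leading form (median 48.3%), and 49 had more additions (median 16.4%). Reads of a second microRNA that shares the first 20 bases but is absent from the RefSeq table can count as additions here. How far this raises the values of the other microRNAs was not tested.

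**Figure D4:**
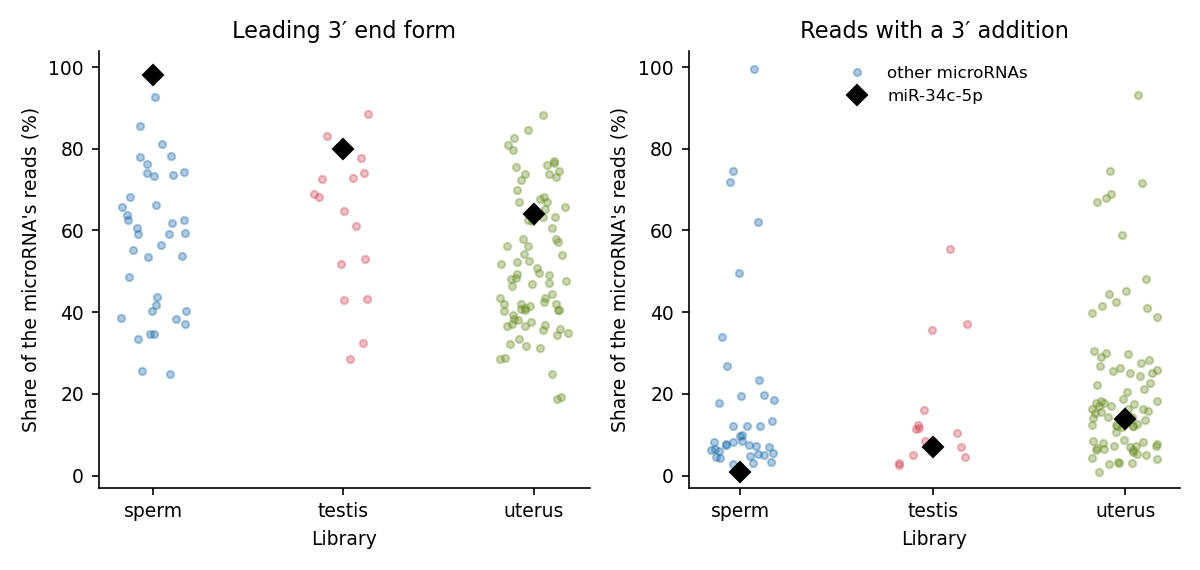
Share of reads in the leading 3′ end form (left panel) and share with a 3′ addition (right panel), in percent, for miR-34c-5p (diamonds) and every other microRNA with at least 1000 reads in the library (dots), in sperm, testis and uterus. The diamond for sperm lies above all 38 dots on the left and below all 38 on the right, and those for testis and uterus lie within the dots.

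Differences between libraries were compared for the microRNAs with at least 1000 reads in both. The leading form of miR-34c-5p was larger in sperm than in testis by 17.95 percentage points, against a median of -9.05 and a range of -22.6 to 47.7 for 9 others, of which 2 were above it. For sperm minus uterus the difference was 34.0 points, against a median of 0.51 for 27 others, of which 4 were above it. For testis minus uterus it was 16.1 points, against a median of -1.69 for 12 others, none of which was above it. For the share with an addition, sperm minus testis was -6.35 points, against a median of -2.15 for the same 9 others, of which 2 were lower still. Sperm minus uterus was -13.1 points, against a median of -4.62 for the 27 others, of which 7 were lower. Testis minus uterus was -6.76 points, against a median of -1.36 and a lowest value of -5.35 for the 12 others. In all 6 differences the median of the other microRNAs was smaller in size or of the other sign.

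The minor members had 3′ ends of their own. miR-449c-5p was longer than its RefSeq sequence: the leading testis read was 25 nt long and is given below as sequenced, with the 4 bases past the RefSeq end in capitals.

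miR-449c-5p, leading testis read (chr13:113036008-113036032, plus strand): aggcagtgcattgctagctggCTGT

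This form made up 54.1% of 242 miR-449c-5p reads in testis and 28.6% of 35 in uterus, and the form of 26 nt made up 22.7% in testis and 14.3% in uterus. No testis read ended before base 23, whereas the RefSeq sequence ends at base 21. Additions were present on 20.7% of the testis reads, mostly of U alone (12.0%). miR-34a-5p in testis was split between forms of 22 nt (41.3%) and 23 nt (27.8%), and 21.3% of its reads had an addition, again most often of U alone (13.0%). miR-449a-5p had a leading form of 22 nt in all libraries, with 33.3% of 39 reads in sperm, 83.0% of 892 in testis and 53.6% of 28 in uterus. Its additions (30.8% in sperm, 9.98% in testis and 17.9% in uterus) were, as counted, in testis mostly of A alone (7.17%). For these minor members too, an added base that equals the next base of the hairpin counts as part of the match. The shares of A and U therefore do not show which base was added more often.

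The 3p strands of Mir34b and Mir34c both carried additions. For miR-34b-3p the leading form of 22 nt held 75.1% of sperm reads, 70.5% of testis reads and 77.8% of uterus reads, and 58 of its 61 additions in sperm were of U alone. For miR-34c-3p it held 64.1% of sperm reads, 39.1% of testis reads and 66.7% of uterus reads, and 53 of its 80 additions in sperm were of A alone. The hairpin continues with A after the 22-nt form of miR-34b-3p and with U after that of miR-34c-3p, so an added A or U, in that order, cannot be told apart from the hairpin there, and the added bases are not compared between the strands. In sperm these strands carried an addition on 9.31% (miR-34b-3p) and 13.3% (miR-34c-3p) of their reads, against the 0.764% of miR-34c-5p in the same library. The uniform 3′ end of miR-34c-5p in sperm was therefore not shared by the 3p strand of its own hairpin.

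Because miR-34b-5p differs from miR-34c-5p by 1 base among the first 20 (G11A, counted from 1 at the 5′ end with the base of miR-34c-5p first), the level of miR-34b-5p is best read beside that of other single substitutions. Per 100000 reads of miR-34c-5p there were 284 reads with G11A, which equal miR-34b-5p, in sperm, against 1646 in testis and 1671 in uterus. The other 59 substitutions had a median of 23.7 per 100000 in sperm, 20.0 in testis and 16.2 in uterus. Their highest value was 278 in sperm (C16A, 47 reads), 68.8 in testis (A5G, 62 reads) and 81.1 in uterus (G11U, 5 reads). In testis and uterus miR-34b-5p thus stood well clear of every other substitution, and in sperm it stood level with the highest one. The 6 changes of G to A at other positions reached at most 41.5 per 100000 in sperm (7 reads), 26.6 in testis (24 reads) and 48.7 in uterus (3 reads). Against this same kind of change, miR-34b-5p was higher in sperm also.

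**Figure D5:**
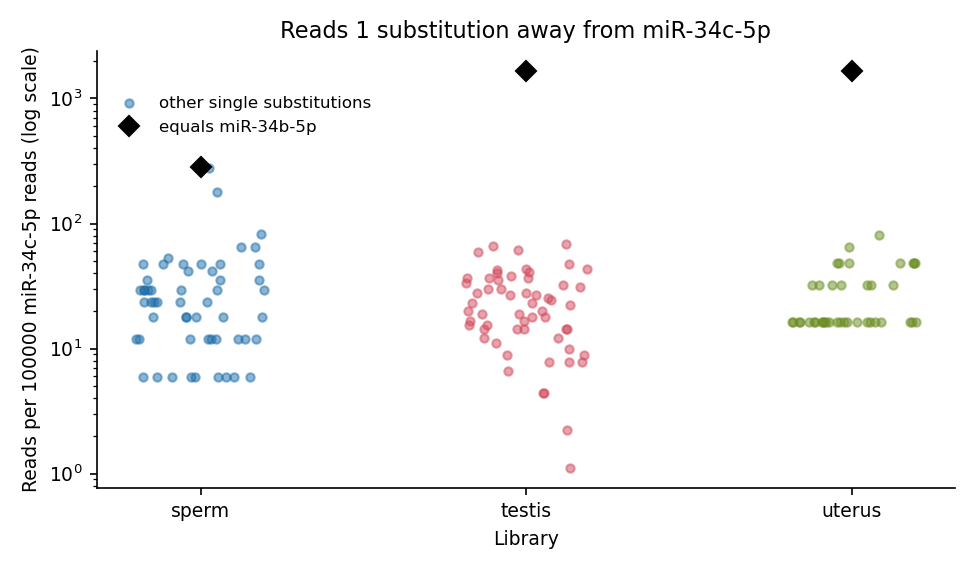
Reads 1 substitution away from the first 20 bases of miR-34c-5p, per 100000 miR-34c-5p reads on a log axis, in sperm, testis and uterus (1 library each). Diamonds are the reads equal to miR-34b-5p (284 for sperm, 1646 for testis and 1671 for uterus), and dots are the other 59 substitutions, of which those with no read (4 in sperm, 1 in testis and 19 in uterus) are not drawn.

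The members also differ at base 23, which is the last base of both leading forms. Among sperm reads with the first 20 bases of miR-34b-5p that reach this base with either letter, 26 of 45 carried the base of miR-34c-5p (57.8%, 42.2 to 72.3%). In testis the count was 4 of 1381 (0.290%) and in uterus 1 of 75 (1.33%). In sperm the leading sequence of miR-34b-5p, with 26 of its 48 reads, was accordingly one that followed the Mir34b hairpin for 22 bases and then departed from it. With only the reads that carry their own base 23 (19 in sperm, 1377 in testis and 74 in uterus), the log2 ratio of miR-34b-5p for sperm over testis was -6.82 (-7.56 to -6.17). The 3p strand of Mir34b was then 34.5 times as frequent as the 5p strand in sperm (21.9 to 57.6). This choice leaves out 5p reads only, so that the ratio of 3p to 5p reads can only rise. Reads of the reverse kind have the first 20 bases of miR-34c-5p and base 23 of miR-34b-5p. They numbered 24 of 16620 in sperm, 1959 of 79543 in testis and 344 of 4752 in uterus. Base 23 of miR-34b-5p is U, so the miR-34c-5p reads 1 base short followed by U alone are among them. The origin of either kind of mixed read was not tested.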

How the data were processed

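Each deposited table gives every distinct read sequence once with its count, a whole number that shows no normalization by the authors. The build mm9 is named by the submitters' processing notes, whereas trimming, size selection and tools were not given in the sources used here. Per the labels, adapters were ligated to small RNA, followed by RT-PCR. A line without sequence was left out of the sperm and of the testis table.

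Reads were compared with 1623 distinct 20-base starts of mature microRNAs, from RefSeq except for miR-34c-5p and miR-449b-5p. Hairpins were those of RefSeq, and that of Mir449b was from GENCODE M21 (GRCm38). Coordinates were not converted to mm9. An addition is what follows the longest match to the hairpin. Shares have Clopper-Pearson and ratios conditional exact binomial 95% intervals. A count of 0 was replaced by 3 reads in bounds. All members and arms are named, each with its 3 leading sequences where used. So are the 4 nearest patterns outside the family among microRNAs with reads in every library. Members, lists and this rule were chosen with earlier results of these data known. Alternatives changed the denominator, the match, the reads counted or the minimum, with TMM (edgeR 4.0.16) or median-of-ratios factors (DESeq2 1.42.0) in R 4.3.3. Matching and intervals were tested on simulated data, with reads built from the same hairpins and judged by the same rule, which checks the code only. In 22.6% of 5000 simulated reads the addition could not be told, at least in part, from the hairpin. Python 3.11.15, numpy 2.4.6, pandas 2.3.3, scipy 1.17.1 and matplotlib 3.10.9 were used.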

Additional observations from a re-analysis of the deposited data

Results flagged for a closer look

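Several reads of the family's hairpins fell outside the counting rule and exceeded the 3 reads that a count of 0 allows. Reads that began 1 to 3 bases away from the expected start numbered 190 in sperm and 39 in testis for miR-34b-3p, whereas miR-34b-5p had 4 in sperm, 229 in testis and 13 in uterus. Sperm also held 30 such reads of miR-34c-3p and 25 of miR-34c-5p, and testis 51 of miR-34c-5p. Reads on the strand opposite to the Mir34b hairpin numbered 5 in sperm and 5 in testis. From the Mir34c hairpin, 7 sperm reads began away from both arms. These libraries have no control sample, so the counts are given as values.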

How the results depend on the processing

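The family's log2 ratio kept its sign under every alternative tried. For sperm over testis it was -1.75 per all reads, -2.82 with TMM factors, -3.40 with DESeq2 size factors and -1.50 with distinct sequences in place of reads. For sperm over uterus the same alternatives gave 1.52, 5.58, 4.93 and 1.25, and for testis over uterus 3.28, 8.40, 8.33 and 2.75. The ratios of miR-34a-3p (-2.57), miR-34a-5p (-2.14) and miR-34b-5p (-1.08) for sperm over uterus, and of miR-34a-3p for testis over uterus (-2.17), reversed per all reads, since this scaling shifts every ratio alike.

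The share of miR-34c-5p was 91.4% in sperm and 96.5% in testis with shifted starts, and 32.9% in sperm, 56.1% in testis and 46.5% in uterus among distinct sequences. Among reads that follow the hairpin to the end, 98.8% in sperm, 86.2% in testis and 74.3% in uterus were 23 nt long. Additions of a single kind of base made up 0.622% in sperm and 6.84% in testis. The 5p to 3p ratio of Mir34b was 20.1 in testis with shifted starts and 0.0290 in sperm with reads that carry their own base 23. These settings for Mir34b were chosen after seeing the data.

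With a minimum of 20 reads, 73 microRNAs were at least 4-fold higher and 48 lower in sperm than in testis, 130 were higher in sperm than in uterus and 121 higher in testis than in uterus. With a minimum of 500 reads, 13 were lower in sperm than in testis, 45 higher in sperm than in uterus and 21 higher in testis than in uterus. Per all reads, 29 were higher and 140 lower in sperm than in uterus, and 29 higher and 174 lower in testis than in uterus. With TMM factors 46 were lower in sperm and 50 in testis than in uterus, and with DESeq2 size factors 69 and 51. The main counts were 48 and 26 (sperm and testis), 85 and 27 (sperm and uterus) and 57 and 21 (testis and uterus). No paired analysis was possible because each group has 1 library, and for the same reason no library could be left out. Of the alternatives for the main results, 57 gave the same result, 39 moved it and 0 reversed it. A ratio or share was the same if it stayed within the counting interval of the main value. A count of calls was the same within a set fold of the main count, so that 58 in place of 85 (higher in sperm than in uterus, DESeq2 size factors) was the same. The 57 and 39 thus pool unlike rules. Only ratios could be labelled as reversed, whereas shares and counts of calls could only stay or move. The split of calls did turn towards lower for sperm against uterus per all reads and with DESeq2 size factors. For testis against uterus it turned per all reads, with TMM factors and with DESeq2 size factors.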
